A study of Mus musculus with 167 samples.

Results

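Liver of wild-type mice on day 7 of phenobarbital was compared with liver of untreated wild-type mice taken on the same day. The comparison holds 8 of the 167 arrays of the series, 1 array per animal. They were picked by the labels for genotype, treatment and time point. Animals 2006, 2007, 2008 and 2009 drank phenobarbital, and animals 1006, 1007, 1008 and 1010 served as controls. All were male C57BL/6 mice of 9 to 11 weeks with both mouse receptors, CAR and PXR, intact. The treated arm had 0.05% (wt/vol) phenobarbital in the drinking water. That concentration rests on the treatment text of the series, which also lists lower concentrations and a starting age of 8 weeks, since the labels of single samples carry no dose. RNA came from powdered frozen liver of the left, caudal and median parts, so each value is an average over all cells of those lobes.

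Other groups of the series enter only where the day 7 response is set against them. These are wild-type liver on day 1 (10 animals) and on days 14, 28 and 91 (28 animals), with the same treatment. On day 7 they are also mice lacking CAR and PXR (7 animals: 4 treated, 3 controls) and mice in which the human receptors replace the mouse ones (9 animals: 4 treated, 5 controls). The question put by the series is how liver transcripts, cell cycle genes above all, respond to phenobarbital through the mouse or the human receptors. Replicates are separate animals per the labels.

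Phenobarbital is a barbiturate that activates the constitutive androstane receptor CAR (gene Nr1i3), a nuclear receptor of hepatocytes, without binding in its ligand pocket. It represses epidermal growth factor receptor signalling, which allows dephosphorylation of CAR. The receptor then enters the nucleus and pairs with the retinoid X receptor. The pregnane X receptor PXR (gene Nr1i2) shares many target genes with CAR. Target genes encode the enzymes and transporters that oxidise, conjugate and export foreign compounds, and activation of CAR in mouse liver is known to bring hepatocytes briefly into the cell cycle.

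All levels below are the deposited log2 expression values, on which 1 unit is a 2-fold step, and a difference is the treated mean minus the control mean with its standard error after ±. The 8 array medians lay between 5.172 and 5.219. The most similar pair among these arrays was animals 2006 and 2008, in which the log2 difference over well expressed genes had an SD of 0.1221, and they were kept as separate animals. Of 18194 genes with a probe set of their own, 12623 were bright enough to test and 5571 were dim. A gene was called where limma's two-sided adjusted p, by Benjamini-Hochberg over the 12623 genes, was under 0.05. The median difference of all tested genes was -0.014. Of 10 tested hepatocyte markers 0 were called, with summed levels of 17.50 to 17.55 in controls and 17.46 to 17.51 in treated livers. Neither receptor gene was called: Nr1i3 differed by -0.14 ± 0.12 (adjusted p = 0.734) and Nr1i2 by -0.09 ± 0.13 (adjusted p = 0.867).

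The response on day 7 was lopsided towards induction. Of the tested genes, 343 were called (2.72%), 266 of them higher (2.11%) and 77 lower (0.61%). Called genes that differed by at least 1.5-fold numbered 111 higher (0.879%) and 13 lower (0.103%). In 247 of the 266 higher genes and in 69 of the 77 lower genes the 4 treated animals lay wholly beyond the 4 controls. Over all tested genes such a separation was found for 598 upwards (4.74%) and 548 downwards (4.34%), 1146 in all (9.08%). Since these are whole livers, more RNA per cell and more cells of a kind cannot be told apart.

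**Figure D1:**
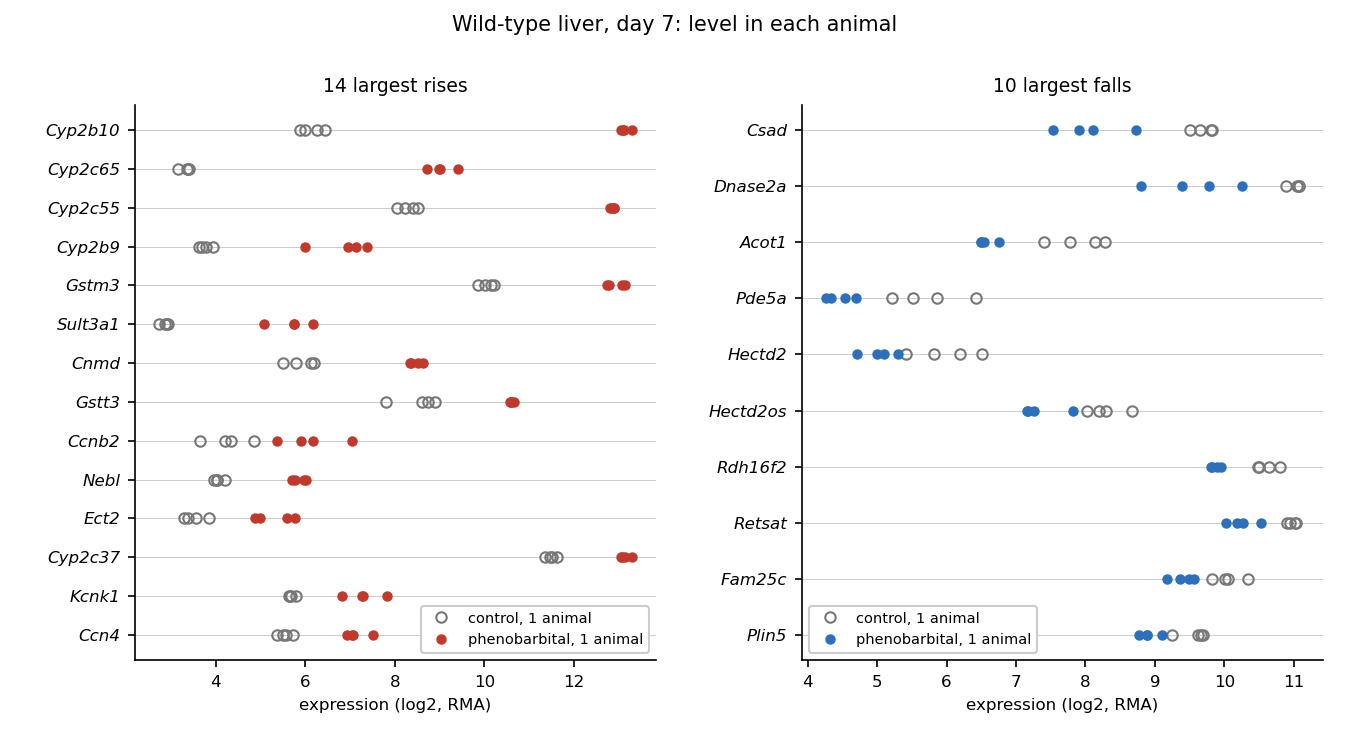
Expression (log2, RMA) of the 14 genes with the largest rises (left) and the 10 with the largest falls (right) on day 7 in wild-type liver; open circles are control animals and filled circles treated animals, 4 each. Cyp2b10 went from 5.88 to 6.43 in controls to 13.05 to 13.30 in treated livers, and the arms do not overlap in any gene shown, since the naming rule asks for that.

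The largest rises were in phase I enzymes, which oxidise or hydrolyse drugs. Cyp2b10, the cytochrome P450 used as the standard readout of CAR, stood at 6.43, 6.26, 5.88 and 5.99 in the controls and at 13.05, 13.09, 13.12 and 13.30 in the treated animals. The treated livers were nearly level with each other and more than 6 units above every control. The difference was 7.00 ± 0.21, or 128-fold (adjusted p = 4.46e-62).

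Cyp2c65 rose from 3.40, 3.36, 3.40 and 3.15 to 9.41, 8.99, 9.00 and 8.72, a difference of 5.70 ± 0.18. Its controls lie below the lower quartile of their arrays, so no fold is given, and every treated liver is far above them. Cyp2c55 rose from 8.40, 8.24, 8.05 and 8.51 to 12.89, 12.80, 12.85 and 12.90, a difference of 4.56 ± 0.17. Cyp2b9, which is normally expressed in female rather than male liver, went from 3.78, 3.93, 3.70 and 3.63 to 7.13, 7.38, 6.96 and 5.99, with animal 2009 lowest. Its difference was 3.11 ± 0.42.

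P450 genes that were already abundant rose by less. Cyp2c37 and Cyp2c54 gained 1.65 ± 0.16 and 1.52 ± 0.14 on control means between 11 and 13. Cyp2c50, Cyp1a2 and Cyp2c29 gained 0.73 ± 0.08, 0.71 ± 0.15 and 0.70 ± 0.08. Cyp3a11, a PXR target and the most abundant of these genes, rose from 14.25 to 14.28 in controls to 14.39 to 14.45 in treated animals. That is 0.16 ± 0.04 (adjusted p = 0.00781), a small step without overlap between the arms, which was not called with only the 8 arrays in the fit (adjusted p = 0.189). These levels lie close to the highest value of all arrays, 15.07, and whether rises are compressed there was not tested. The carboxylesterase Ces2a rose by 1.12 ± 0.08 and the epoxide hydrolase Ephx1 by 0.48 ± 0.10.

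Of 30 tested phase I genes 21 were higher (70%) and 0 lower, and their median difference was 0.43, against 2.11% higher and a median of -0.014 over all tested genes. The list has 37 entries, 30 of them on the array and all of those bright enough to test. Near-identical relatives (Cyp2b9, Cyp2b10 and Cyp2b13, the Cyp2c and Gstm genes) may bind to each other's probes, which makes the value of any 1 of them uncertain.

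Phase II enzymes, which attach glutathione, sulfate or glucuronic acid, rose nearly as broadly. The list has 35 entries, of which 29 were on the array and tested; 17 were higher (58.6%) and 0 lower, with a median of 0.56. Gstm3, a glutathione transferase, stood at 10.02, 10.22, 9.85 and 10.14 in controls and at 12.73, 13.14, 13.08 and 12.78 in treated livers, a difference of 2.87 ± 0.20. Another transferase, Gstt3, rose from 8.75, 8.89, 8.60 and 7.81 to 10.57, 10.59, 10.59 and 10.66, or by 2.09 ± 0.18. Here the treated animals differed by less than the controls did, of which 1010 was lowest.

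Sulfotransferases varied more between animals. Sult3a1 rose from 2.73, 2.92, 2.94 and 2.88 to 5.08, 5.76, 5.76 and 6.18, a difference of 2.83 ± 0.34. Sult1e1, the estrogen sulfotransferase, rose from 3.42 to 3.57 in controls to 3.84, 5.03, 4.98 and 6.33, so that animal 2006 had barely left the control range while 2009 was far above it. Its difference of 1.54 ± 0.24 (adjusted p = 5.79e-07) was lost when only the 8 arrays entered the fit (adjusted p = 0.0908). Gstm2, Gstm1 and Gstm4 rose by 1.57 ± 0.18, 1.21 ± 0.12 and 0.98 ± 0.14. The glucuronosyltransferases Ugt2b34, Ugt2b35 and Ugt2b36 rose by 0.71, 0.62 and 0.23. Papss2, which makes the sulfate donor, rose by 0.62 and Ugdh, which makes the glucuronic acid donor, by 0.49.

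Transporters responded gene by gene. Of 17 tested, 4 were higher (23.5%) and 0 lower, and the median was 0.04. Abcc4, an exporter of the basolateral membrane, rose from 4.94, 5.28, 4.99 and 5.19 to 6.86, 6.07, 6.61 and 6.90, or by 1.51 ± 0.19. Abcc3, a basolateral exporter of glucuronides, rose from 9.43 to 9.60 in controls to 10.55 to 10.63, by 1.08 ± 0.12. The uptake carrier Slco1a4 rose by 0.96 ± 0.22 and the canalicular exporter Abcc2 by 0.49 ± 0.13, the latter with overlap between the arms.

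Several genes outside drug metabolism rose as strongly. Cnmd, which encodes chondromodulin, a glycoprotein best known from cartilage, went from 6.20, 6.12, 5.80 and 5.50 to 8.34, 8.36, 8.62 and 8.51, a difference of 2.55 ± 0.17. Nebl, an actin-binding protein, rose from 3.96 to 4.21 in controls to 5.71 to 6.02, by 1.82 ± 0.23. Kcnk1, a potassium channel subunit, rose by 1.61 ± 0.23 and Ccn4, a secreted matrix protein known as a Wnt target, by 1.60 ± 0.19. A second probe set of Ccn4 gave 2.73 and a second one of Kcnk1 gave 1.17, but the other probe sets of Nebl gave -0.10 and 0.14. Gadd45b, a stress and growth arrest gene that binds CAR, rose from 5.46 to 5.61 to 6.49 to 6.89, by 1.15 ± 0.17. Its other probe sets gave 1.26 and 0.03.

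Cell cycle genes were called in the replication and mitosis lists, while the G1 list stayed near the share over all tested genes. In the G1 list 1 of 26 tested genes was higher, Gadd45b (3.85%, against 2.11% over all tested genes), and the list median was 0.03. Cyclin D1 (Ccnd1), which drives entry into the cycle, stood at 8.25, 8.19, 8.18 and 8.51 in controls and at 8.27, 8.24, 8.02 and 7.81 in treated livers, -0.20 ± 0.20 (adjusted p = 0.78). The arms overlapped.

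The DNA replication lists have 49 entries, of which 46 were on the array and 40 bright enough to test. Of these, 10 were higher (25%, against 2.11% over all tested genes) and 0 lower, with a median of 0.22. The helicase subunit Mcm5 stood at 6.52, 6.81, 6.02 and 6.38 in controls and at 7.67, 7.78, 7.71 and 6.80 in treated livers, a difference of 1.06 ± 0.23 (adjusted p = 0.00124). Animal 2009 lay within the control range, and the other treated animals lay well above it. Mcm6, another subunit, gave 8.00, 8.22 and 8.17 in animals 2006 to 2008 and 7.14 in 2009, against 6.04 to 7.00 in controls, or 1.22 ± 0.25. Other probe sets gave 0.48 and 0.0 for Mcm5, and 1.40 and 0.07 for Mcm6.

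The same animal was lowest of the treated in 8 of the 10 called replication genes. Rrm2, which makes deoxynucleotides, read 7.02 in animal 2009 and 7.56 to 8.23 in the others, with controls up to 6.99. Its difference of 1.07 ± 0.30 passed with all arrays (adjusted p = 0.0251) but not in 4 of 15 alternative fits, where the adjusted p reached 0.24. Fignl1, a recombination factor, rose by 0.95 ± 0.16 and Mcm4 by 0.71 ± 0.15, with second probe sets at 0.177 and 0.705. Dbf4, the activator of the replication kinase, rose by 0.72 ± 0.18, and here animal 2006 rather than 2009 was lowest, at 5.87. A second probe set of Dbf4 gave 0.03. Geminin (Gmnn), which blocks re-licensing, rose by 0.49 ± 0.11 and was highest in 2009, at 8.38. The count of 10 replication genes was 6 without animal 2008 or without control 1010, and 4 with only the 8 arrays in the fit. Control 1008 was the lowest control in 7 of the 10, and without it the count was 8.

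The mitosis lists gave the larger count. Those for kinases and cyclins, the kinetochore, the spindle and the chromosomes hold 92 entries, of which 89 were on the array and 57 were tested. Of these, 18 were higher (31.6%, against 2.11% over all tested genes) and 0 lower, 49 had a difference above 0, and the median was 0.31. The filter counts arrays of every group, so a mitotic gene can pass it through treated livers alone, and these counts do not cover all members. Without any filter 30 of the 89 were higher, where all 18194 genes together gave 334 calls in either direction. Among the 30 were 13 of the 32 dim members, such as Pbk at 1.00 ± 0.18, Ube2c at 0.95 ± 0.19 and Kif20a at 0.58 ± 0.12.

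Ccnb2, cyclin B2, a partner of the mitotic kinase Cdk1, showed the largest rise of the lists. It stood at 4.87, 4.21, 3.65 and 4.33 in controls and at 5.36, 5.91, 7.04 and 6.18 in treated livers, a difference of 1.86 ± 0.23 (adjusted p = 1.39e-10). Every control lay below the median of its array, and 1008 below the lower quartile, so no fold is given. The spread between treated animals was wide, with 2006 lowest and 2008 highest, yet no treated animal reached down to a control.

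Ect2, which is needed for cytokinesis, rose from 3.85, 3.56, 3.29 and 3.38 to 4.89, 4.99, 5.77 and 5.59, or by 1.79 ± 0.25. Birc5, survivin, a member of the chromosomal passenger complex, rose from 4.06, 3.73, 3.57 and 3.92 to 4.98, 5.06, 6.13 and 4.79, or by 1.42 ± 0.20. Every Ect2 control, and the Birc5 values of controls 1007 and 1008, lay below the lower quartile of the array. Cdca3, a trigger of mitotic entry, went from 5.12 to 5.25 in controls to 5.88, 6.14, 6.90 and 6.24, or by 1.10 ± 0.15. In each of these genes animal 2008 was the highest.

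The proliferation marker Mki67 stood at 4.33 to 4.87 in controls and at 5.44, 5.66, 6.62 and 5.30 in treated livers (1.11 ± 0.23, adjusted p = 0.000326). The kinase Cdk1 stood at 6.04 to 6.58 and at 6.84, 6.98, 7.49 and 6.82 (0.71 ± 0.17, adjusted p = 0.00272). Top2a, which untangles chromosomes, had another order of animals, 6.00, 5.75, 5.60 and 5.05 in 2006 to 2009 against 4.62 to 5.11 in controls. Its difference of 0.67 ± 0.20 was only just called (adjusted p = 0.0408), a second probe set of it gave 0.02, and the call was lost in 10 of 15 alternatives.

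Other members of these lists were called too. The cyclin Ccna2 rose by 0.97 ± 0.16, the spindle protein Ckap2 by 1.03 ± 0.12, the checkpoint protein Mad2l1 by 0.78 ± 0.11 and the centrosome kinase Nek2 by 0.76 ± 0.13. The condensin subunit Ncapg2 and the microtubule regulator Stmn1 rose by 0.80 ± 0.17 and 0.82 ± 0.18. Centromere proteins Cenpk, Spc24 and Cenpm rose by 0.70, 0.62 and 0.49, and Incenp by 0.51. The calls of Spc24 and Incenp were each lost in 6 of 15 alternatives, with adjusted p-values up to 0.141 and 0.392. Other probe sets gave less or nothing for Cdca3 (0.04 and 0.18), Nek2 (0.38, 0.01 and 0.07), Cenpk (0.37 and 0.13) and Incenp (-0.04 to 0.04). The second probe sets of Ccna2 and Stmn1 gave 0.61 and 0.49. Esco2, a cohesin acetyltransferase outside the lists, rose from 2.79 to 3.37 in controls to 3.84, 4.26, 5.29 and 4.48, or by 1.44 ± 0.25.

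**Figure D2:**
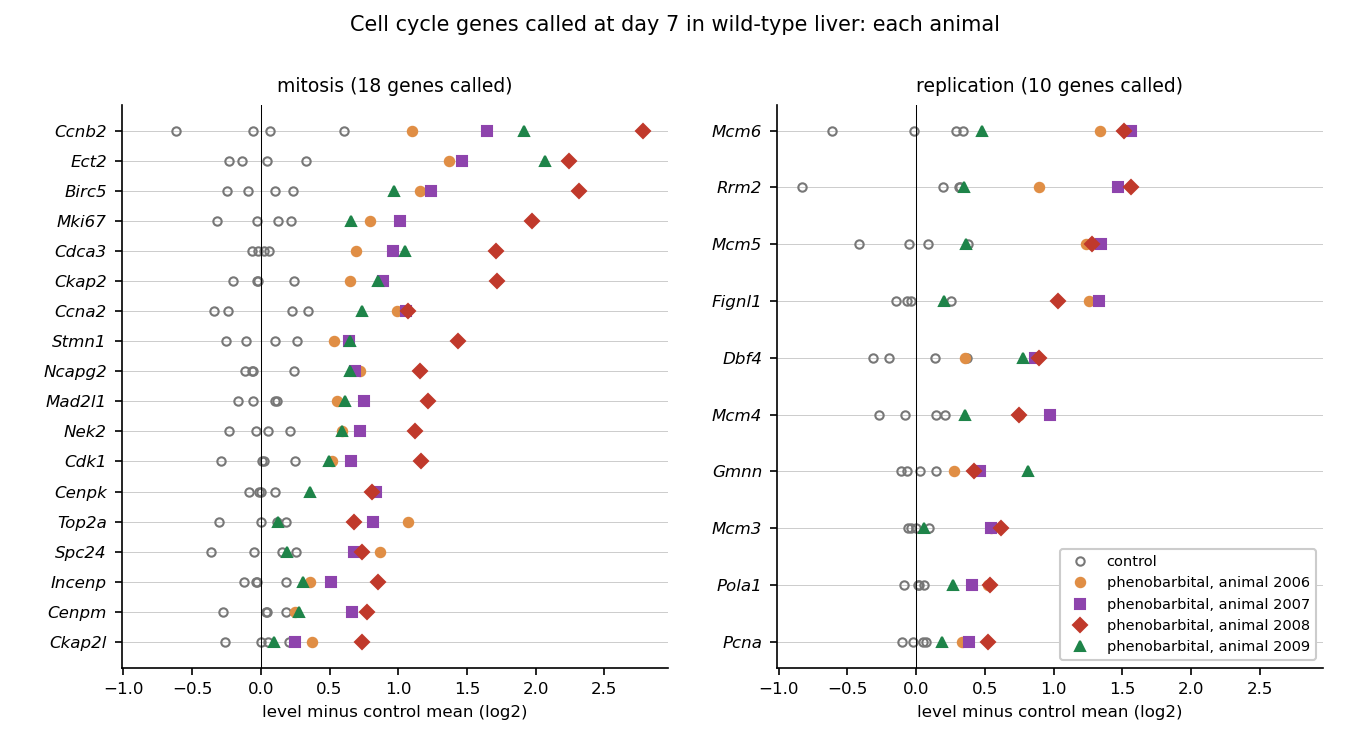
Level of each animal minus the control mean of the gene (log2) for the 18 mitotic (left) and 10 replication genes (right) that were called higher; open circles are controls and coloured symbols are the 4 treated animals. Animal 2008 is the highest treated animal in 15 of the 18 mitotic genes, and animal 2009 is the lowest in 8 of the 10 replication genes.

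Animal 2008 was the highest of the treated livers in 15 of the 18 called mitotic genes. Without it 12 remained higher, and the differences were 1.56 for Ccnb2, 1.63 for Ect2, 1.12 for Birc5 and 0.82 for Mki67, with adjusted p-values of 4.77e-07, 5.24e-06, 6.43e-05 and 0.0394. Cdk1 (0.56, adjusted p = 0.0778) and Stmn1 (0.61, adjusted p = 0.0652) were not called without it. Among the controls, animal 1008 was lowest in 13 of the 18 genes and 1006 was highest in 10. The count of mitotic genes was 14 without 1008 and 16 without 1006. With only the 8 arrays in the fit it was 10, and with the stricter filter on dim genes, which tests fewer of them, it was 5.

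Promoters of the called mitotic genes are shown because genes that move together through the cycle often carry CCAAT boxes, bound by NF-Y, and the cell cycle homology region, TTTGAA, bound by MuvB complexes such as DREAM. RefSeq (GRCm38.p6) promoters, 250 bases before to 50 after the annotated start, were found for 14 of the 18 genes. Either strand was searched, and a match counted whether or not it overlapped another. CCAAT was present in 11 of 14 promoters (78.6%), against 38% of 10156 promoters of tested genes, and TTTGAA in 9 of 14 (64.3%), against 11.9%. The E2F words TTTGGCGC, TTTCCCGC and TTTCGCGC were found in 3 of 14 (21.4%), against 3.43%. In the 8 promoters of called replication genes the order differed: E2F words in 4 (50%), CCAAT in 6 (75%) and TTTGAA in 1 (12.5%). The genes were picked by their calls, no count was tested, and a match is only a description of letters.

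The 120 bases before the start are printed for the 4 genes with the largest rises among those with a promoter, 5′ to 3′ along the gene, with CCAAT and TTTGAA in capitals.
Ccnb2 (chr9:70421555-70421674, minus strand): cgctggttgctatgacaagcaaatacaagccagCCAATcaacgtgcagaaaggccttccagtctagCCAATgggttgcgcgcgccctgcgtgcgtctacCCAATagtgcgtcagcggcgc
Ect2 (chr3:27153879-27153998, minus strand): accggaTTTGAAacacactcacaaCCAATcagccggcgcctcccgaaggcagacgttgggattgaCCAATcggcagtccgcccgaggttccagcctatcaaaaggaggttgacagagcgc
Birc5 (chr11:117849117-117849236, plus strand): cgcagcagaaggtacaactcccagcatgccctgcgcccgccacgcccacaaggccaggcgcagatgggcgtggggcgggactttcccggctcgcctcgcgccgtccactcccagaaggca
Mki67 (chr7:135716380-135716499, minus strand): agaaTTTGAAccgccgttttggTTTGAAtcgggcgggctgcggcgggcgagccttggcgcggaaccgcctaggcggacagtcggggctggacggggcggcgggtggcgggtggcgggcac
In Ccnb2 the 3 CCAAT boxes begin at positions -87, -54 and -21 from the start, evenly spaced and all in the gene's own direction. Ect2 has a TTTGAA at -114 with CCAAT at -96 and -55. Mki67 has TTTGAA at -116 and -98, with its CCAAT boxes further upstream, and the Birc5 window holds none of these words although the gene rose by 1.42.

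Falls numbered 77 and reached -1.63. Csad, which makes hypotaurine on the way to taurine, fell from 9.65, 9.51, 9.81 and 9.83 to 8.10, 7.53, 7.90 and 8.73, a difference of -1.63 ± 0.35 (adjusted p = 0.000865). Dnase2a, the acid nuclease of lysosomes, fell from 10.89, 11.08, 11.05 and 11.08 to 9.78, 8.79, 9.39 and 10.26, or by 1.47 with an SE of 0.29. The treated animals stood in the same order in both genes, 2007 lowest and 2009 highest.

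Genes of lipid and retinoid handling were among the other falls. Acot1, an acyl-CoA thioesterase and PPARα target, fell from 8.13, 8.28, 7.78 and 7.40 to 6.55, 6.50, 6.75 and 6.50 (-1.33 ± 0.23). The lipid droplet protein Plin5 differed by -0.65 ± 0.17, the retinol saturase Retsat by -0.73 ± 0.17 and Rdh16f2, of the retinol dehydrogenase family, by -0.74 ± 0.18. Pde5a, which degrades cyclic GMP, differed by -1.30 ± 0.19 and Fam25c by -0.66 ± 0.18. Other probe sets of Pde5a gave -0.03 and -0.13, while second ones of Plin5 and Retsat gave -0.54 and -0.62. The calls of Fam25c and Plin5 were each lost in 3 of 15 alternatives, with adjusted p-values up to 0.115 and 0.0594. The ubiquitin ligase Hectd2 and its antisense transcript Hectd2os differed by -0.96 ± 0.27 and -0.95 ± 0.28, but both calls were lost in 6 of 15 alternatives, and 2 further probe sets of Hectd2 gave -0.01 and 0.18.

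**Figure D3:**
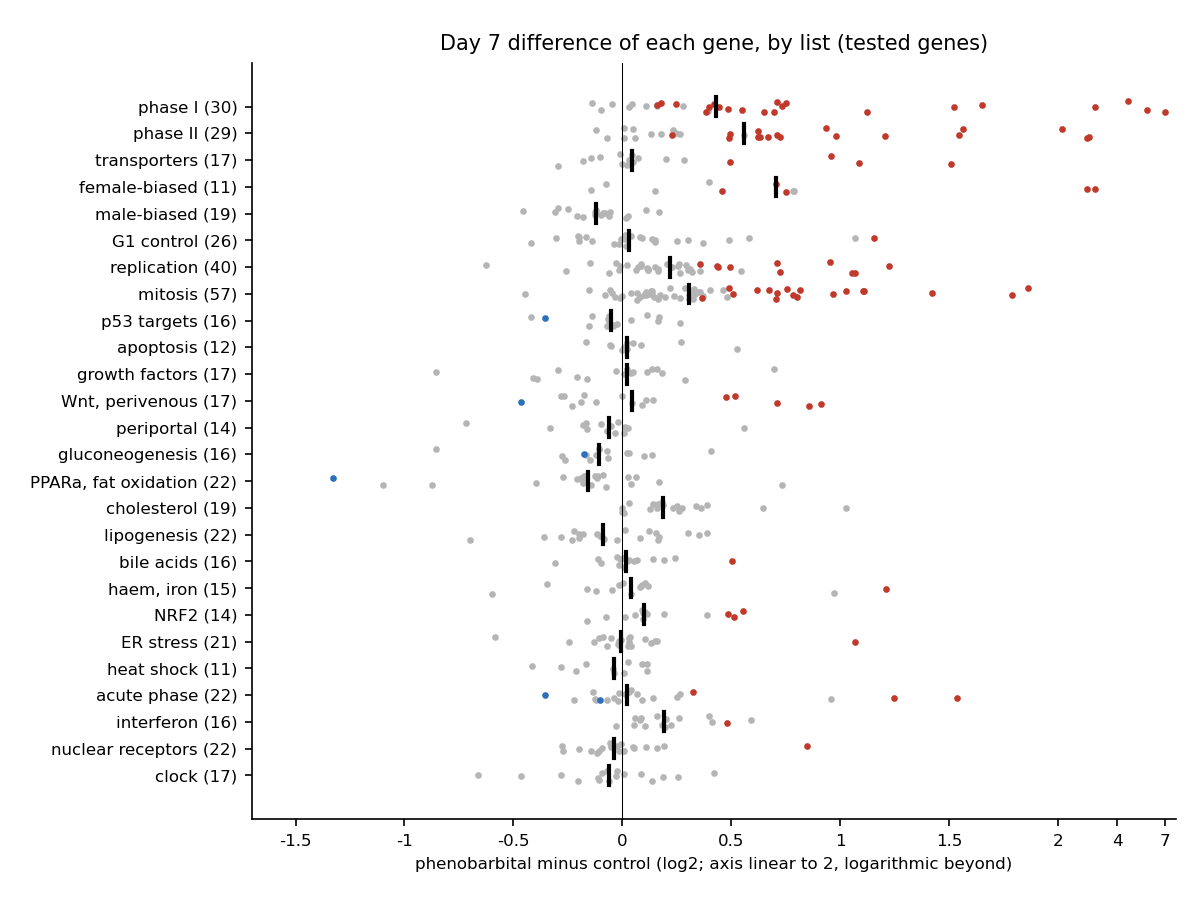
Difference on day 7 (treated minus control, log2) of every tested gene in 26 lists; each point is a gene, red called higher, blue called lower, grey not called, and the black bar is the list median, with the number of tested genes in brackets and an axis that turns logarithmic beyond 2. Genes called higher make up 21.4% to 70% of the phase I, phase II, female-biased, mitosis, perivenous and Wnt, replication, transporter and NRF2 lists. Over all tested genes the share was 2.11%. Outside phase I, phase II, replication, mitosis and female-biased genes most medians stay around 0.

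Other pathways of hepatocyte metabolism held few calls on day 7. In the PPARα and fat oxidation list 1 of 22 tested genes was lower (4.55%), Acot1, and 0 were higher, with a median of -0.16. Over all tested genes 0.61% were lower. The fatty acid hydroxylase Cyp4a14 ranged from 5.20 to 8.80 in controls and from 5.67 to 6.46 in treated livers, -0.87 ± 0.70 (adjusted p = 0.697). Of 22 lipogenic genes and of 19 genes of cholesterol synthesis 0 were called. Cholesterol genes had 17 of 19 differences above 0 and a median of 0.19, with squalene epoxidase (Sqle) at 1.03 ± 0.36 (adjusted p = 0.11).

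Glucose, bile acid and haem genes gave single calls, in lists of 16, 16 and 15 tested genes. These were 6.25% lower, 6.25% higher and 6.67% higher, against 0.61% lower and 2.11% higher over all tested genes. The gluconeogenic Fbp1 was lower in all treated animals, 13.79 to 13.84 against 13.92 to 14.03 (-0.18 ± 0.04). With only the 8 arrays in the fit its call was lost (adjusted p = 0.166). Akr1d1, a reductase of bile acid synthesis, rose by 0.50 ± 0.11, with a second probe set at 0.70. Its call too was lost with only the 8 arrays (adjusted p = 0.111). Cyp7a1, the rate-limiting enzyme, did not pass (0.24 ± 0.44, adjusted p = 0.902). Alas1, the first enzyme of haem synthesis, varied widely, from 8.08 to 11.24 in controls and from 9.41 to 10.89 in treated livers (0.97 ± 0.62, adjusted p = 0.581). The transferrin receptor Tfrc rose by 1.21 ± 0.25, and its other probe sets gave 0.215 to 0.468.

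Perivenous and Wnt genes were called in both directions. Of 17 tested 5 were higher (29.4%) and 1 lower (5.88%), with a median of 0.05. The rises were Tnfrsf19 (0.91 ± 0.16), the hepatokine Lect2 (0.86 ± 0.11), Cyp1a2, the ammonium transporter Rhbg (0.52 ± 0.12) and Slc13a3 (0.48 ± 0.13). Other probe sets of Tnfrsf19 gave -0.02 and 0.36. The fall was Notum, a secreted Wnt inhibitor, which stood at 7.25, 7.03, 7.25 and 7.10 in controls and at 6.72, 6.66, 6.77 and 6.62 in treated livers (-0.46 ± 0.10). Neither Axin2, a general Wnt target (0.14, adjusted p = 0.755), nor the perivenous glutamine synthetase Glul (-0.23, adjusted p = 0.0634) was called. In the periportal list 0 of 14 genes were called.

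Stress and immune lists held few calls by number, though some exceeded the share over all tested genes (2.11% higher, 0.61% lower). NRF2 targets gave 3 of 14 higher (21.4%), Nqo1 (0.55 ± 0.14), Srxn1 (0.51 ± 0.10) and Ephx1. Acute phase genes gave 3 of 22 higher (13.6%) and 2 lower (9.09%). Orm3 and Orm2, orosomucoids of plasma, rose by 1.54 ± 0.19 and 1.25 ± 0.37 and Crp by 0.32 ± 0.06, while Itih3 and Fgg differed by -0.36 and -0.10. Trib3, a pseudokinase of the ER stress list, rose by 1.07 ± 0.29 as the 1 gene of 21, the interferon-induced Irgm1 by 0.48 ± 0.13 as the 1 of 16, and Ahr, the dioxin receptor, by 0.85 ± 0.21 as the 1 of 22 nuclear receptor genes. These calls were lost in 6 of 15 alternatives for Orm2, 5 for Irgm1, 4 for Itih3, 3 for Trib3 and 2 for Ahr. A second probe set of Ahr gave 0.18 and a second one of Trib3 gave 0.79. Among 16 p53 targets Perp was lower (-0.36 ± 0.08) and 0 were higher. In the heat shock, clock, apoptosis, growth factor and oncofetal lists 0 genes were called at an adjusted p under 0.05.

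Female-biased genes are kept low in male liver by growth hormone pulses. Of 11 tested female-biased genes 5 were higher (45.5%) with a median of 0.71, namely Cyp2b9, Sult3a1, Cyp2b13, Hao2 and Cyp3a44, and of 19 male-biased genes 0 were called, with a median of -0.12. Cyp2b9, Cyp2b13, Sult3a1 and Cyp3a44 are drug-metabolising enzymes themselves. Hao2, a hydroxyacid oxidase, rose from 3.86, 3.77, 3.68 and 3.85 to 4.51, 4.45, 4.82 and 4.20 (0.71 ± 0.21, adjusted p = 0.0405). The levels of these genes are low, and leaving out single animals left 2 to 4 calls in the list (2 without treated animal 2008 or control 1006, 1008 or 1010, 3 without 2006, 2007 or 1007), and the stricter filter on dim genes left 0.

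Markers of other cells were measured alongside. Among 13 marker lists for hepatocytes and other cells the 1 called gene was the gut marker Lgals4, which was lower. The mesothelial list had 0 tested genes and gives no result. Summed pancreatic enzyme markers, of which 11 were tested, read 10.52 to 10.63 in controls and 10.67, 10.92, 10.69 and 12.01 in animals 2006 to 2009. Animal 2009 thus carried the most pancreatic RNA and was also lowest in replication genes, and without it 13 replication and 20 mitotic genes were higher instead of 10 and 18. Summed macrophage markers read 13.22 in control 1010 and 11.86 to 12.37 in the other livers. Summed stellate markers read 12.27 to 12.42 in treated livers and 12.43 to 12.62 in controls. The part of these differences in the gene results was not tested.

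Day 7 differed from day 1 in 33 genes (0.261%), 24 with a larger (0.19%) and 9 with a smaller difference on day 7 (0.0713%). On day 1 itself 634 genes were higher (5.02%) and 880 lower (6.97%), 1514 in all (12%). Of the 266 genes higher on day 7, 166 were higher on day 1 (62.4% of the day 7 genes and 26.2% of those of day 1). Genes with a small difference on day 1 and a larger one on day 7 were Sult3a1 (0.29 on day 1, day 7 larger by 2.54, adjusted p = 0.000518), Sult1e1 (0.17, larger by 1.37), Nebl (0.52, larger by 1.30) and Ccnb2 (0.19, larger by 1.67, adjusted p = 0.000832). Cyp2c65 was at 4.01 on day 1, and day 7 was larger by 1.69.

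The opposite pattern was led by Ccnd1. It was higher by 1.07 on day 1 and at -0.20 on day 7, a change of -1.26 ± 0.27 (adjusted p = 0.00946). The mitochondrial import factor Timm8a1 (-0.39), the chromatin protein Hmgn1 (-0.38), the kinase Cdk17 (-0.36) and the translation factor Eif1ax (-0.33) had smaller steps of the same sign. In replication lists 18 of 40 genes were higher on day 1 and 10 on day 7, and in mitosis lists 12 of 57 were higher and 2 lower on day 1 against 18 and 0 on day 7. The day 7 minus day 1 test called 3 of those 57 mitotic genes and 0 of the 40 replication genes. Of the 19 genes of cholesterol synthesis 17 were higher on day 1 and 0 on day 7, yet the difference between the days was called in 0 of them (median -0.67).

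This count of 33 depended on single animals. It was 12 without treated animal 2008, 19 without 2009, 18 without control 1007 or 1008, and on the side of day 1 it was 14 without control 1001, 17 without 1003 or 1004, 20 without 1005, 20 without treated animal 2003 and 69 without 2005. Sult3a1, Ccnb2 (1.37, adjusted p = 0.0289), Cyp2c65, Ccnd1, Timm8a1 and Hmgn1 were among the 12 genes left without 2008, and Sult1e1, Nebl, Cdk17 and Eif1ax were not.

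**Figure D4:**
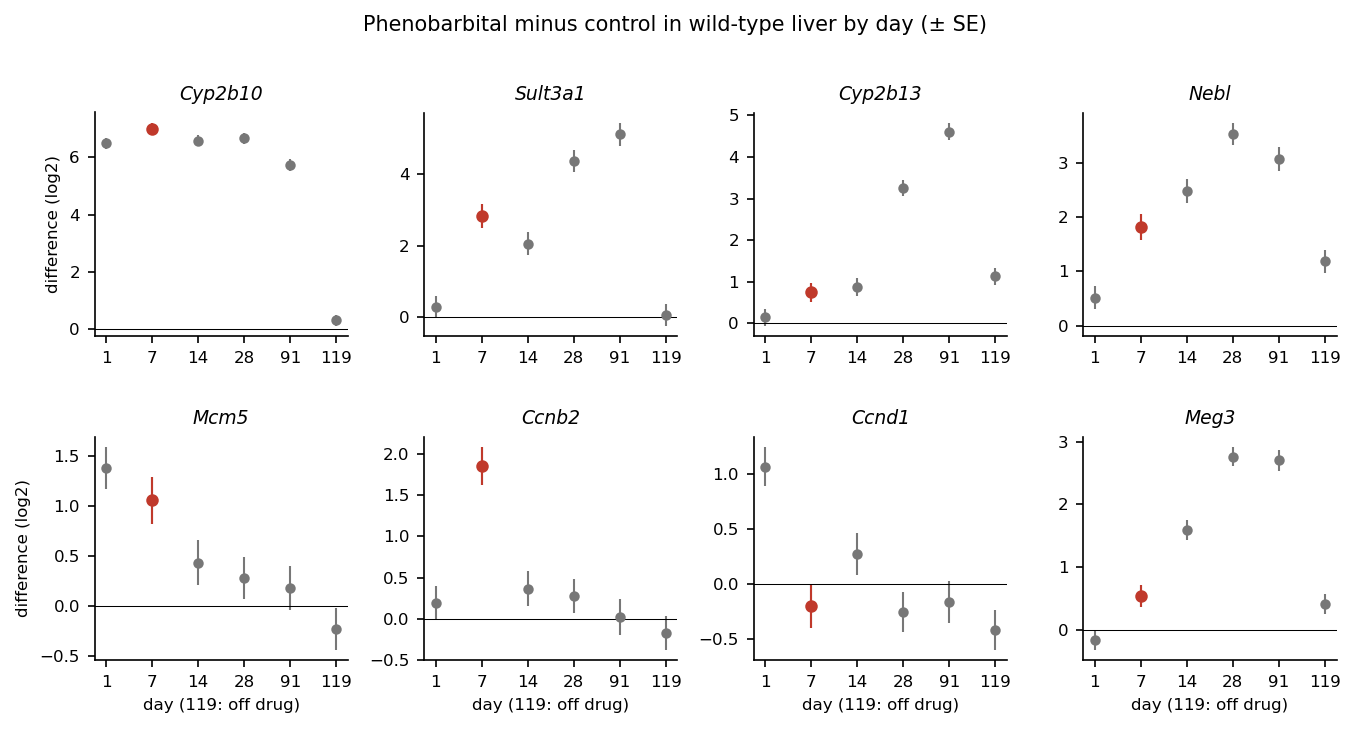
Treated minus control difference (log2, ± SE) in wild-type liver for 8 genes, at days 1 to 91 on the drug and at day 119 off it; day 7 is red. Ccnb2 stands at 1.86 on day 7 and at 0.37 or below on the other days, while Meg3, Cyp2b13 and Nebl reach larger differences on later days.

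The later days of dosing had counts of their own. On day 14 there were 1109 (8.79%), 3.11% of genes higher and 717 (5.68%) lower. Day 28 had 700 (5.55%), of which 456 (3.61%) were higher and 244 (1.93%) lower. Day 91 had 269 (2.13%), of which 183 (1.45%) were higher and 86 (0.681%) lower. Day 14 shared 173 of the 266 genes higher on day 7 (65% of the day 7 genes, 44.1% of those of day 14). Day 28 shared 190 (71.4% and 41.7%), and day 91 shared 115 (43.2% and 62.8%). Of the 77 lower genes, day 14 shared 52 (67.5% and 7.25%), day 28 shared 45 (58.4% and 18.4%) and day 91 shared 18 (23.4% and 20.9%). On day 119, off the drug, 3 genes were called (0.0238%), all of them higher: Cyp2b13 (1.13), Nebl (1.19) and Serpinb1a, which was chosen after its values were seen and stood at 1.02 on day 7 (adjusted p = 0.0676).

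Against the mean of days 14, 28 and 91, day 7 differed in 18 genes (0.143%), 13 with a larger (0.103%) and 5 with a smaller difference on day 7 (0.0396%). Of the 13, 9 belong to the mitosis lists. Ccnb2 was larger by 1.64 ± 0.26 (adjusted p = 1.83e-05), Esco2 by 1.39 ± 0.28, Birc5 by 1.22 ± 0.23, Stmn1 by 1.04 ± 0.20 and Cdca3 by 0.94 ± 0.17. The other mitotic genes were Ckap2, Ccna2, Ncapg2, Mad2l1 and Cenpm. The mean difference over the later days was 0.22 for Ccnb2 and 0.05 for Esco2.

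Without animal 2008 the count of 18 fell to 3, of which Ccnb2 was the 1 mitotic gene (1.33, adjusted p = 0.00775). Cdca3 then read 0.74 (adjusted p = 0.101), Birc5 0.92, Stmn1 0.83 and Esco2 1.12. Without control 1008 or 1010 the count was 11. Genes with a larger difference on the later days were Cyp2b13 (0.75 on day 7, -2.16 ± 0.26), Meg3 (0.54, -1.82 ± 0.20), Rian (0.51, -1.20 ± 0.28), Nebl (1.82, -1.20 ± 0.27) and the membrane protein Fam171a1 (0.49, -0.65 ± 0.15).

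Meg3 and Rian, non-coding RNAs of the imprinted Dlk1-Dio3 domain, did not pass on day 7. Meg3 stood at 7.01, 7.14, 6.93 and 7.38 in controls and at 7.77, 7.51, 7.75 and 7.59 in treated livers. Every treated animal was above every control, but the difference of 0.54 ± 0.18 did not pass (adjusted p = 0.0768). Rian overlapped between the arms, 3.44 to 4.00 against 4.67, 4.56, 4.36 and 3.71 (0.51 ± 0.25, adjusted p = 0.371).

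In mice without CAR and PXR 2 of the 12623 genes were called (0.0158%), both higher: Abcc3, at 0.61 ± 0.13, and Mettl7b, which was chosen after its values were seen and differed by 0.067 in wild-type liver (adjusted p = 0.822). The test of wild type minus knockout called 84 genes (0.665%), 72 with a larger wild-type difference (0.57%) and 12 with a smaller one (0.0951%). It was 6.78 ± 0.31 for Cyp2b10, 5.68 ± 0.26 for Cyp2c65, 4.38 ± 0.26 for Cyp2c55, 2.83 ± 0.61 for Cyp2b9 and 2.66 ± 0.50 for Sult3a1. In mitosis lists 5 of 57 genes passed it, Ccnb2 (1.64 ± 0.34), Ect2 (1.58 ± 0.37), Ckap2, Cdca3 and Mad2l1, and in replication lists 0 of 40. Without animal 2008 Ccnb2 still passed (1.33, adjusted p = 0.0278), as did Ckap2 (0.75, adjusted p = 0.0106), but Ect2 (1.43, adjusted p = 0.0549), Cdca3 (0.74, adjusted p = 0.135) and Mad2l1 (0.52, adjusted p = 0.175) did not. Mcm5 differed by 0.46 ± 0.25 in the knockout, and wild type exceeded that by 0.59 ± 0.34 (adjusted p = 0.737).

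Among genes lower in wild type, the difference from the knockout was called for Rdh16f2 (-1.04 ± 0.27), Slc25a22, a mitochondrial glutamate carrier (-0.79 ± 0.15), the transcription cofactor Zfpm1 (-0.68 ± 0.17), Gpd1 of glycerol phosphate synthesis (-0.58 ± 0.15) and Cbs of the transsulfuration pathway (-0.58 ± 0.14). It was not called for Csad and Dnase2a, the largest falls. Csad differed by -1.14 ± 0.38 and Dnase2a by -1.04 ± 0.31 in the knockout itself, neither of which passed there (adjusted p = 0.502 and 0.348), and in the humanized mice by -1.39 and -1.02. The wild type minus knockout values were -0.49 ± 0.52 and -0.43 ± 0.42. These errors are too wide to tell whether the falls differ between the genotypes.

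**Figure D5:**
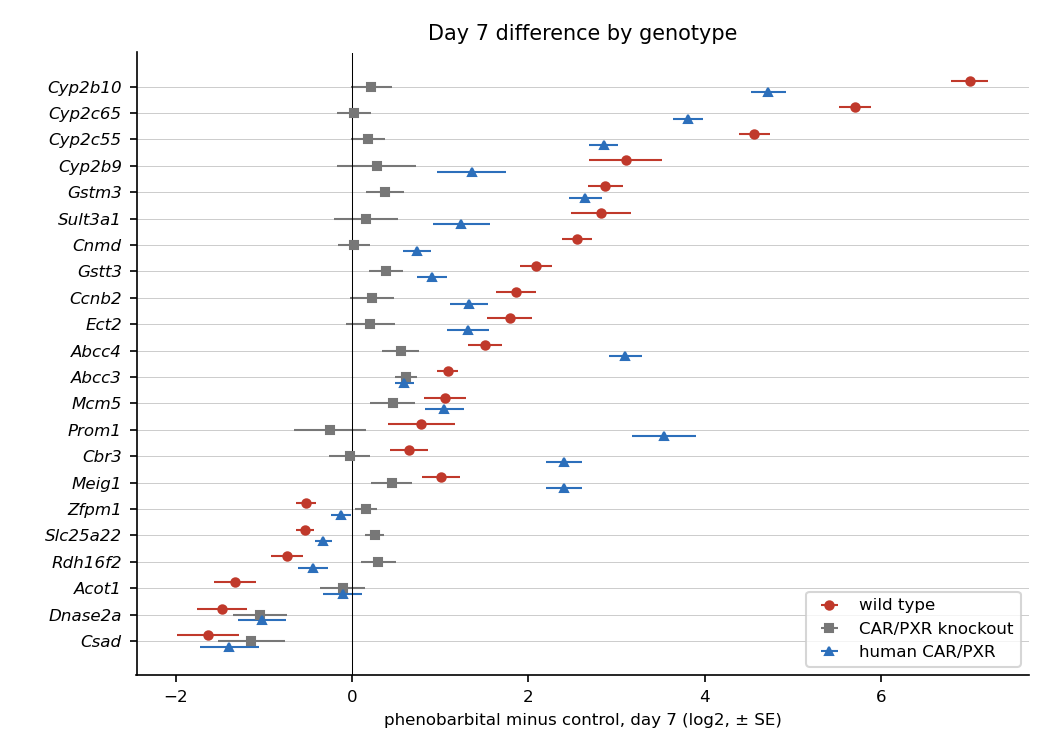
Treated minus control difference on day 7 (log2, ± SE) for 22 genes in wild-type mice (circles), mice without CAR and PXR (squares) and mice with the human receptors (triangles). Squares sit near 0 for the induced P450 genes, while for Csad and Dnase2a all 3 genotypes lie below -1.

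With the human receptors 611 genes were called on day 7 (4.84%), 356 higher (2.82%) and 255 lower (2.02%). Of the 266 genes higher in wild type, 147 were higher there as well (55.3% of the wild-type genes and 41.3% of the humanized ones). The difference between these genotypes was called for 12 genes (0.0951%), 7 larger in wild type (0.0555%) and 5 smaller (0.0396%). Cyp2b10 was 2.28 ± 0.29 larger in wild type, Cyp2c65 1.90 ± 0.25, Cnmd 1.82 ± 0.23, Cyp2c55 1.71 ± 0.24 and Gstt3 1.18 ± 0.25. Cyp2b10 itself rose by 4.72 in humanized livers.

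A handful of genes responded less in wild type. Prom1, a marker of progenitor-like cells, rose by 3.54 in humanized livers and by 0.79 ± 0.38 in wild type, where animals 2006 to 2009 read 7.03, 6.59, 6.25 and 5.97 against 5.38 to 5.88 in controls, a difference between genotypes of -2.75 ± 0.52. The carbonyl reductase Cbr3 (-1.76 ± 0.30), the exporter Abcc4 (-1.59 ± 0.27), Meig1 (-1.39 ± 0.30) and Simc1 (-0.68 ± 0.15) had the same sign. In mitosis lists 17 of 57 genes were higher and 1 lower in humanized livers, and wild type minus humanized was called for 0 of 57, at 0.54 ± 0.32 for Ccnb2. That error leaves room for differences on both sides of 0, and equal responses are not shown.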

How the data were processed

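Liver RNA of each animal was hybridised to 1 Affymetrix mouse array. The authors deposited log2 expression values made with RMA, per the submitters' processing notes; its version is not given in the sources used here. All 167 columns were mapped to samples and 0 were left unused. Of 45101 probe sets, 64 were controls, 34958 had 1 gene symbol, 932 several and 9211 none in the platform annotation. Of those with 1 symbol, 34754 matched RefSeq, and 0 were renamed. A gene was read from its probe set with the highest mean over all arrays.

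A gene was tested if at least 3 arrays of any group lay above their own array's median. Of 2 nearly identical pairs of arrays, humanized animals 6026 and 6030 of day 119 were averaged. The other pair, treated knockout animals 4019 (day 28) and 4024 (day 91), had different group labels and was kept as separate animals. limma 3.58.1 in R 4.3.3 fitted 36 groups over 166 samples, with 130 residual and 3.98 prior degrees of freedom, and Benjamini-Hochberg adjustment over 12623 genes. All adjusted p-values come from this fit, whose spread is shared by all groups. Differences between days and genotypes were tested as contrasts in the same fit. The fit with the wild-type day 7 contrast was tested on simulated data with independent normal noise. The choice of probe sets, the filter, the differences between effects, the lists and the promoter search were not.

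Named were the 14 largest rises and 10 largest falls without overlap between the arms (predicted and clone genes left out), up to 4 called members of each list, the 5 largest differences each way per contrast and 23 fixed genes. Cyp2c50, Cyp2c54, Ces2a, Gstm1, Gstm4, the Ugt2b genes, Papss2, Ugdh, Gmnn, Slc13a3, Notum, Fgg, Cyp3a44 and the dim genes were named after their values were seen. The members and the 33 gene lists and 13 marker lists were chosen with earlier results of these data known. Alternatives were another normalization, filter, probe set rule, prior and set of arrays, and each animal left out. Promoters came from RefSeq, with the first listed start of a gene. The number of arrays limits the precision.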

Additional observations from a re-analysis of the deposited data

Results flagged for a closer look

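In 17 of 206 groups of 4 animals, 1 animal lay apart from the other 3 by more than Dixon's critical value. Chance flags about 1 in 20 groups. Among treated livers, animal 2009 was apart for Cenpk (5.43, the others 5.88 to 5.91), Mcm5 (6.80, the others 7.67 to 7.78) and Tnfrsf19 (6.86, the others 6.54 to 6.56). Animal 2008 was apart for Ncapg2 (5.84, the others 5.33 to 5.40) and Stmn1 (9.03, the others 8.13 to 8.25). Animal 2007 was high for Abcc3 (10.63) and Srxn1 (8.18), and 2006 for Hectd2os (7.81, the others 7.15 to 7.26). Among controls, animal 1010 was low for Rrm2 (5.84, the others 6.86 to 6.99), Cyp2b13 (4.51), Cyp2c65 (3.15) and Eif1ax (8.69). Control 1008 was low for Nr1i3 (7.92) and Plin5 (9.25), 1006 for Dnase2a (10.89) and Trib3 (5.93), and 1007 was high for Ncapg2 (4.92).

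Differences between effects were tested as limma contrasts. Between day 7 and day 1, 33 genes differed. Day 7 was larger for Sult3a1 (2.54), Cyp2c65 (1.69), Ccnb2 (1.67), Sult1e1 (1.37) and Nebl (1.30), and smaller for Ccnd1 (-1.26), Timm8a1 (-0.39), Hmgn1 (-0.38), Cdk17 (-0.36) and Eif1ax (-0.33). Between day 7 and the mean of the later days, 18 genes differed: Ccnb2 (1.64), Esco2 (1.39), Birc5 (1.22), Stmn1 (1.04) and Cdca3 (0.94) were larger on day 7, and Cyp2b13 (-2.16), Meg3 (-1.82), Rian (-1.20), Nebl (-1.20) and Fam171a1 (-0.65) smaller.

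Between wild type and knockout 84 genes differed, led by Cyp2b10 (6.78), Cyp2c65 (5.68), Cyp2c55 (4.38), Cyp2b9 (2.83) and Sult3a1 (2.66) and, with a smaller value in wild type, Rdh16f2 (-1.04), Slc25a22 (-0.79), Zfpm1 (-0.68), Gpd1 (-0.58) and Cbs (-0.58). Between wild type and humanized mice 12 genes differed, led by Cyp2b10 (2.28), Cyp2c65 (1.90), Cnmd (1.82), Cyp2c55 (1.71) and Gstt3 (1.18) and, with a smaller value in wild type, Prom1 (-2.75), Cbr3 (-1.76), Abcc4 (-1.59), Meig1 (-1.39) and Simc1 (-0.68).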

How the results depend on the processing

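The count of 343 genes on day 7 ranged from 245 (with only the 8 arrays in the fit) to 393 (quantile normalization), and from 258 to 303 with single animals left out. Of the 84 named genes that were called, 51 kept their call in those of the 15 alternatives that tested them. The other 33 lost it in at least 1, and 0 changed direction. With only the compared arrays 21 calls were lost. A gene that the stricter filter on dim genes left untested was not counted as a loss, here or in the counts per gene above. Cyp2b13 and Hao2 lost the call in 9 alternatives each. The day 7 minus day 1 count of 33 was 7 with only the compared arrays and 20 with the stricter filter, and 12 to 69 with single animals left out. Day 7 minus the later days gave 18, then 4 with the stricter filter and 3 to 23 with single animals left out (3 without treated animal 2008). Wild type minus humanized gave 12, then 19 with only the compared arrays. Wild type minus knockout gave 57 to 96. The cause of these moves was not tested. No paired analysis was possible because the animal numbers differ between the arms.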

Other observations

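Predicted or clone genes were left out of the naming rule, and 3 of them, chosen after their values were seen, differed on day 7 by as much as named genes: 1700067K01Rik by 2.41, 9030619P08Rik by 2.16 and Gm10419 by 2.05. Summed B cell and plasma cell markers read 8.72 to 9.92 in controls and 10.62, 10.74, 10.84 and 9.48 in treated animals 2006 to 2009, although 0 of 5 tested markers were called and their median difference was -0.058. The sum followed Ighm (1.47 ± 0.46, adjusted p = 0.0541 in limma), while Jchain (-0.304), Pax5 (-0.074), Cd79b (-0.058) and Ms4a1 (-0.007) had differences below 0.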
